A study of Mus musculus with 15 samples.

Results

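The 8 genes described here make up much of the route by which cells build cholesterol: *Hmgcs1*, *Idi1*, *Fdps*, *Fdft1*, *Sqle*, *Lss* and *Cyp51*, which encode enzymes, and *Srebf2*, which encodes the transcription factor SREBP-2. They were picked by symbol, as genes of 1 pathway, out of 24982 gene symbols in the count files. All 8 were found, and all 8 were among the 14121 genes that passed the filter on low counts. None of the 8 encodes a receptor or transporter that takes cholesterol up, so uptake was examined through a separate list of genes. RNA-Seq was performed on 15 whole aortas, 1 per library, from wild-type C57BL/6 males (C57BL/6J in the study's methods) aged 10 months. Every mouse, including each control, was given Aldo-salt, that is, aldosterone at 200 µg/kg per day from a minipump together with 0.9% NaCl and 0.2% KCl in the drinking water, for 7 days, starting 2 weeks after surgery. The control mice (5) had a sham operation, the orchiectomized mice (5) had their testes removed, and the DHT mice (5) were orchiectomized and carried a pellet of dihydrotestosterone (DHT), a potent androgen, during Aldo-salt. No mouse without Aldo-salt is among the 15 libraries, so the comparisons concern androgen in the presence of Aldo-salt.

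Cholesterol is assembled from acetyl-CoA through mevalonate, isoprenoid diphosphates, squalene and lanosterol. SREBP-2 is held in the membrane of the endoplasmic reticulum while sterols are plentiful, and is cut free and enters the nucleus when they run low, where it switches on the genes of this pathway and of cholesterol uptake. Because of this shared control, the enzymes of the pathway are known for rising and falling together. In the arterial wall, cholesterol arrives mainly in lipoproteins and is handled by smooth muscle cells, macrophages and the surrounding fat.

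Reads in genes ranged from 8268957 to 13816864 per library. The smooth muscle markers, a list of 9 genes that includes *Myh11* and *Acta2*, summed to between 11238 and 25147 CPM (read counts relative to the size of the library, scaled by TMM) in the 15 libraries, as the label aorta implies. Of 10 markers of adrenal cortex, an organ rich in the same pathway, 8 were too low to test: *Cyp11b2* and *Hsd3b6* had no read in any of the 15 libraries and *Cyp11b1* had at most 2, while *Cyp11a1* had up to 20 and *Mc2r* had 3 to 19 in every library. The 2 tested markers, *Star* and *Fdx1*, summed to 36.7 to 66.7 CPM in control, 30.6 to 58.7 CPM in orchiectomized and 44.8 to 64.2 CPM in DHT-treated mice, and neither was called in any comparison. In contrast, fat was present, and the 12 adipocyte markers summed to between 3416 and 8756 CPM. Some libraries stood apart. A list of T and B cell genes had a mean level of 3.65, 3.15 and 3.01 log2 CPM in orchiectomized replicates 2, 3 and 4, against -0.61 to 1.36 in the other 12 libraries. Limma's voom gave its lowest quality weights to orchiectomized replicates 2 (0.234) and 3 (0.552) and its highest to orchiectomized replicate 5 (3.39). In whole aortas, fewer cells of a type and less RNA per cell cannot be told apart.

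The genes lie apart in the genome (GRCm38, GENCODE M21). *Hmgcs1* is at chr13:119690379-119708260 (plus strand), *Idi1* at chr13:8885501-8892451 (plus), *Fdps* at chr3:89093588-89101959 (minus) and *Fdft1* at chr14:63145150-63179578 (minus). *Sqle* is at chr15:59315077-59331192 (plus), *Lss* at chr10:76531588-76557138 (plus), *Cyp51* at chr5:4081145-4104746 (minus) and *Srebf2* at chr15:82147181-82205379 (plus). Exons of 6 of the 8 genes overlap an exon of another annotated gene: *Ctsb* on the other strand of *Fdft1*, *Akap9* on that of *Cyp51*, 4930483K19Rik on that of *Lss*, Gm48342 on that of *Hmgcs1*, Gm48574 on that of *Idi1*, and Gm43738 on the same strand as *Fdps*. Whether strand was used in counting is not given in the sources used here, so reads in these overlaps cannot be assigned with certainty.

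Promoters are shown for the 4 genes that passed the test in at least 1 comparison below. RefSeq promoters (GRCm38.p6, 250 bases before to 50 after the annotated start) were matched for 5 of the 8 genes: *Hmgcs1*, *Idi1*, *Lss*, *Cyp51* and *Srebf2*. They were searched on both strands for CACNCCAC, a core of the sterol regulatory element bound by SREBPs, with its form CACCCCAC, for CCAAT, the box bound by NF-Y, for TGTTCT, a hexamer in elements bound by the androgen receptor, and for CACGTG, the E-box. The 250 bases before each start are printed 5′ to 3′ on the strand of the gene, with every match of a searched motif in capitals. The GENCODE genes of *Lss*, *Cyp51* and *Idi1* begin within these bases, since the annotations place the start differently.
*Hmgcs1* (chr13:119690101-119690350, plus strand): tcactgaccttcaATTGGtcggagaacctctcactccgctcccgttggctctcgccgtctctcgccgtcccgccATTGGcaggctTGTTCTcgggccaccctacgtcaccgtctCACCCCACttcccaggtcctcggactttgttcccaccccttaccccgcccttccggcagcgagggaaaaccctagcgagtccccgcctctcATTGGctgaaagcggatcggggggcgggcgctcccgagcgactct
*Lss* (chr10:76531355-76531604, plus strand): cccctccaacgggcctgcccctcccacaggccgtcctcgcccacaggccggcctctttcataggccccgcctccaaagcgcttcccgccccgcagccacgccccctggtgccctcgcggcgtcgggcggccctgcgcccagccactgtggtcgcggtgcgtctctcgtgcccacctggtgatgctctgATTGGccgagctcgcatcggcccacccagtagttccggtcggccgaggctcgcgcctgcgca
*Cyp51* (chr5:4104698-4104947, minus strand): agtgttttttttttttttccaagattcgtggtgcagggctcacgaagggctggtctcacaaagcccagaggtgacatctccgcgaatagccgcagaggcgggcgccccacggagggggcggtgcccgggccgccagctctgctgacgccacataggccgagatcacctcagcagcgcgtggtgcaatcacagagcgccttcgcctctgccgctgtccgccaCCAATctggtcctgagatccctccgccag
*Idi1* (chr13:8885356-8885605, plus strand): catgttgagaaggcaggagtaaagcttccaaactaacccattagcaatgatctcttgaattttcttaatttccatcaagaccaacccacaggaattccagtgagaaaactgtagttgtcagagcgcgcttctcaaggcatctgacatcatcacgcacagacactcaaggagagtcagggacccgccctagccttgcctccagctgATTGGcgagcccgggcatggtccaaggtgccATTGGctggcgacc

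The *Hmgcs1* promoter held CACCCCAC, starting at position -136 from the start, and was the only 1 of the 5 with CACNCCAC or CACCCCAC, which 6.24% and 2.87% of all 32851 promoters of this length hold. It was also the only 1 with TGTTCT, at -165, a hexamer found in 19% of all promoters. CCAAT or its reverse complement ATTGG was present in 5 of 5, against 37.4% of all promoters, at -45 in both *Hmgcs1* and *Idi1*, at -62 in *Lss* and at -29 in *Cyp51*. *Hmgcs1* held 4 copies, of which 1, at position 11 after the start, lies outside the printed bases. CACGTG, found in 7.15% of all promoters, was in none of the 5. Among 15 other cholesterol synthesis genes, 13 had a promoter in the table, of which 12 held CCAAT, 1 CACNCCAC, 3 TGTTCT (*Dhcr7*, *Hsd17b7* and *Tm7sf2*) and 3 CACGTG (*Dhcr7*, *Hsd17b7* and *Sc5d*). These are matches of letters in a window and not measured binding.

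Orchiectomy was compared with sham operation to ask whether loss of testicular hormones altered the pathway in the aorta under Aldo-salt. *Hmgcs1*, *Lss* and *Cyp51* were lower in orchiectomized than in control mice, at 58.4%, 55.3% and 68.9% of the control level. The other 5 genes did not pass the test, although the log2 fold change of each was below 0. Thus 3 of 8 genes were called lower at an unadjusted P value below 0.01, a call that 1.13% of all 14121 tested genes received. That share depended on single libraries: it was 0.547% without control replicate 1, 0.576% without control replicate 3, 3.13% without control replicate 4 and 1.83% without DHT replicate 4, when 3, 3, 4 and 4 of the 8 genes were called lower. None of the 8 was called higher, as 2.08% of all tested genes were. The median log2 fold change of the 8 genes was -0.61, that of all tested genes was 0.037, and 43.2% of all tested genes had a value below 0.

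*Hmgcs1*, whose enzyme HMG-CoA synthase acts early, before mevalonate, stood at 304, 278, 335, 200 and 274 CPM in the 5 control aortas. In the 5 orchiectomized aortas it stood at 176, 121, 134, 190 and 192 CPM. Every orchiectomized aorta was below every control aorta, a separation in this direction that 0.517% of all tested genes showed. The log2 fold change was -0.78 (SE 0.18, 95% interval -1.16 to -0.39), and the adjusted P value was 0.241 in edgeR's quasi-likelihood test.

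*Lss*, which encodes lanosterol synthase, the enzyme that closes the sterol ring, was at 48.1, 45.5, 73.9, 42.5 and 41.8 CPM in the controls. After orchiectomy it was at 22.5, 20.3, 26.8, 29.0 and 40.4 CPM. Again the groups did not overlap, although orchiectomized replicate 5 lay just under the lowest control. The log2 fold change was -0.85 (SE 0.22, 95% interval -1.31 to -0.39), with an adjusted P value of 0.244 in edgeR. Neither *Hmgcs1* nor *Lss* lost its call when any 1 of the 15 libraries was left out, and their log2 fold changes then lay between -0.88 and -0.70 and between -1.03 and -0.71. Both calls were lost with the T and B cell level as a covariate (-0.59 and -0.80), and *Hmgcs1* gave -0.50 with the adipocyte level as a covariate. *Lss* was also not called with limma's voom and quality weights (-0.53) or without orchiectomized replicates 2 and 3 together (-0.72).

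*Cyp51*, whose enzyme demethylates lanosterol, ranged from 71.0 to 121 CPM in the controls, with the values 94.5, 121, 96.1, 98.9 and 71.0. In the orchiectomized mice the values were 67.4, 57.4, 51.0, 76.2 and 80.0 CPM, so that only control replicate 5 fell within the range of the orchiectomized mice. The log2 fold change was -0.54 (SE 0.16, 95% interval -0.88 to -0.20), with an adjusted P value of 0.285 in edgeR. This call was lost without control replicate 2, when the log2 fold change was -0.44, and without orchiectomized replicate 3, when it was -0.48. It was also lost with the replicate number as a block (-0.53) and with voom (-0.35).

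Of the remaining enzymes, *Idi1*, which isomerizes the isoprenoid building block, was at 27.2, 32.7, 38.6, 23.8 and 24.6 CPM in controls. Orchiectomized mice had 16.0, 12.7, 11.98, 22.5 and 27.7 CPM, and 4 of these 5 values were below every control (log2 fold change -0.69, 95% interval -1.22 to -0.16). *Fdps*, which joins isoprenoids to farnesyl diphosphate, had 90.4 to 187 CPM in controls and 41.6 to 113 CPM in orchiectomized mice (log2 fold change -0.70, 95% interval -1.23 to -0.18). *Sqle*, which oxidizes squalene, gave -0.42 (95% interval -0.82 to -0.02), and *Fdft1*, the squalene synthase at the branch to sterols, gave -0.25 (-0.72 to 0.21). For *Idi1*, *Fdps* and *Sqle* the interval lay below 0, but the stricter threshold of 0.01 was not passed. Over the alternative fits listed below, *Idi1* lay between -0.73 and -0.34, *Fdps* between -0.75 and -0.35, and *Sqle* between -0.46 and -0.086. *Srebf2*, the regulator itself, was at 156 to 211 CPM in controls and 136 to 220 CPM in orchiectomized mice, with a log2 fold change of -0.12 (95% interval -0.39 to 0.16).

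No gene of the 14121 had an adjusted P value below 0.05 in this comparison with edgeR, while 1692 had an unadjusted P value below 0.05. By the same adjusted threshold, voom called 1 gene and DESeq2 called 131, among them *Hmgcs1* and *Lss* but not *Cyp51*. DESeq2 also called *Fdps* and *Idi1* at an unadjusted P value below 0.01, which made 5 of 8 lower. It called 304 genes higher and 316 lower in all, where edgeR called 294 and 160, so that its background for a lower call was 2.24%.

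**Figure D1:**
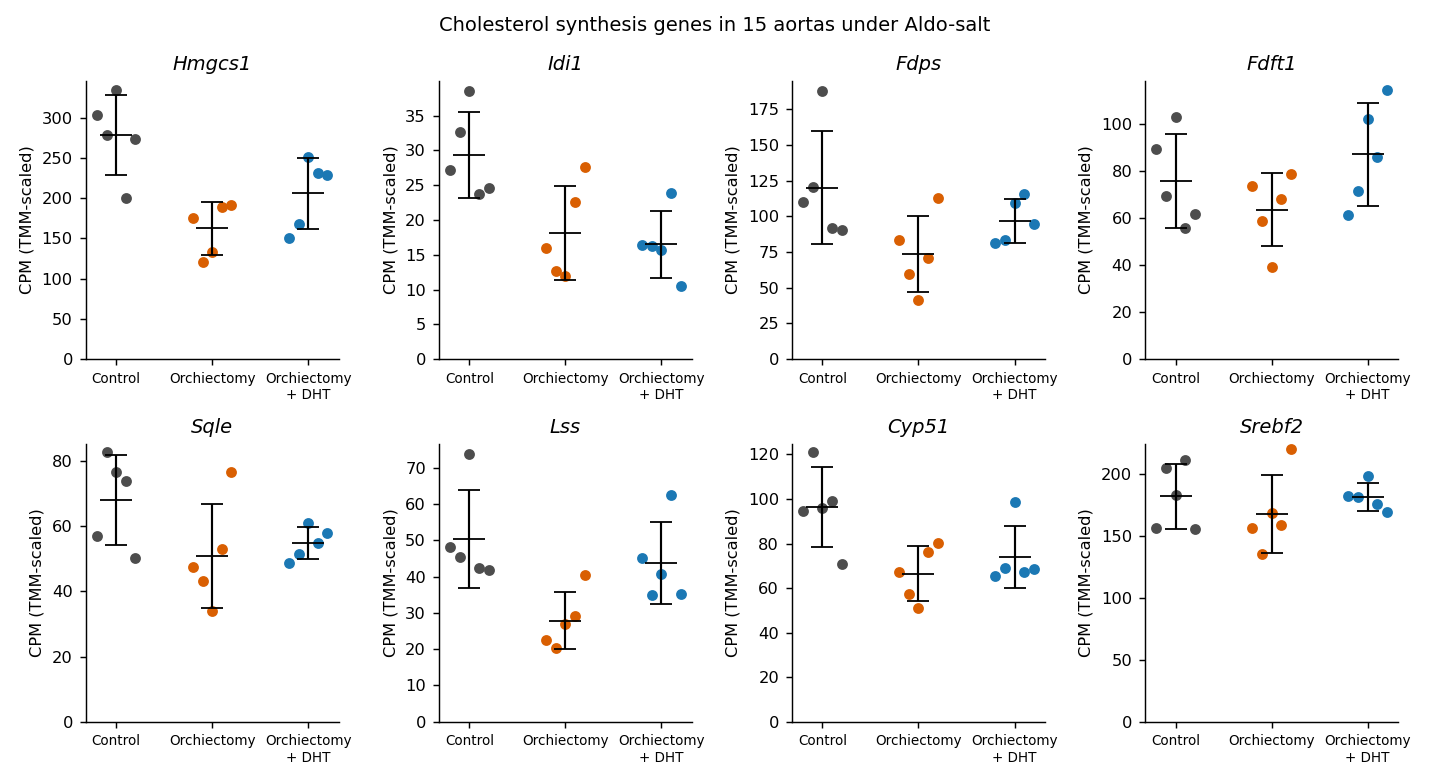
CPM (vertical axis, linear, from 0) of each of the 8 genes in the 5 control, 5 orchiectomized and 5 DHT-treated orchiectomized mice; points are single aortas in order of replicate number, and bars show the mean ± SD. The orchiectomized points of *Hmgcs1* and *Lss* lie below all control points, orchiectomized replicate 5 is the highest of its group in all 8 panels, and the groups overlap widely for *Srebf2*.

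The orchiectomized mice varied among themselves in the same way for most of the genes. Orchiectomized replicate 5 was the highest of its group for all 8 genes, whereas replicate 3 was the lowest for 5 and replicate 2 for the other 3. Replicates 2 and 3 each had 7 of 8 genes below every control, replicate 1 had 6, replicate 4 had 4 and replicate 5 had 2. Of all tested genes, 17.8%, 25.5%, 22.7%, 10.8% and 9.28% lay below every control in replicates 1 to 5. Without replicate 5, 6 of 8 genes were called lower, with *Idi1* (log2 fold change -0.89), *Fdps* (-0.91) and *Sqle* (-0.62) joining the other 3. In that fit 124 of 14228 genes were called lower, or 0.872%. Without replicates 2 and 3 together, the libraries of lowest quality weight and with 2 of the 3 highest T and B cell levels, *Hmgcs1* was still called (log2 fold change -0.59), while *Lss* and *Cyp51* (-0.38) were not, against 0.482% of all genes called lower. With the T and B cell level as a covariate *Cyp51* gave -0.33, and none of the 8 genes was called lower, against 0.8% of all genes. Of the 8 tested genes of that list 7 were themselves higher in orchiectomized than in control mice. The mean level of the list ranged from 0.44 to 3.65 log2 CPM in orchiectomized and from -0.12 to 0.74 in control mice. This level and orchiectomy therefore cannot be fully told apart. Among the controls, replicate 3 was the highest for 5 of the 8 genes and replicate 5 the lowest for 5.

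DHT-treated orchiectomized mice were compared with untreated orchiectomized mice to ask whether an androgen returned the pathway toward the sham level. *Lss* was the only 1 of the 8 genes that passed the test, at 157% of the orchiectomized level. The log2 fold change was above 0 for 7 of the 8 genes, with a median of 0.25, against -0.022 for all tested genes, of which 46.7% were above 0. The call of 1 of 8 genes as higher compares with 2.46% of all tested genes. No gene of the 8 was called lower, a call that 7.27% of all tested genes received.

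*Lss* was at 45.2, 34.95, 40.8, 62.6 and 35.2 CPM under DHT, so that 4 of the 5 orchiectomized aortas without DHT lay below every DHT-treated aorta and replicate 5, at 40.4 CPM, lay inside their range. The log2 fold change was 0.65 (SE 0.22, 95% interval 0.19 to 1.11), with an adjusted P value of 0.0960 in edgeR. This call did not hold without control replicate 1 or 2, orchiectomized replicate 1, 2, 3 or 4, or DHT replicate 1, 3 or 4, each left out alone (log2 fold change 0.51 to 0.70). With limma's voom and quality weights the value itself was smaller, at 0.28, and *Lss* was not called. Nor was it called with the replicate block (0.66), with only the groups compared (0.67), with the T and B cell covariate (0.59) or without orchiectomized replicates 2 and 3 together (0.52).

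For the other 7 genes, as for *Lss*, the DHT-treated and orchiectomized groups overlapped, while 2.09% of all tested genes lay wholly higher under DHT. *Hmgcs1* was at 151, 168, 252, 231 and 229 CPM under DHT, 3 of which exceeded every value of the untreated orchiectomized mice (log2 fold change 0.34, 95% interval -0.041 to 0.73). *Fdft1* had 61.3 to 115 CPM under DHT and 39.3 to 78.7 CPM without it (0.45, 95% interval -0.014 to 0.92), and *Fdps* gave 0.40 (-0.13 to 0.92). The value of *Fdps* was 0.011 with the T and B cell covariate, 0.081 with voom, and 0.27 to 0.60 when single libraries were left out. *Cyp51* was at 65.6, 68.8, 98.6, 67.4 and 68.6 CPM under DHT, 4 of which lay within the range of the orchiectomized mice, and its log2 fold change was 0.15 (95% interval -0.19 to 0.49). *Sqle* and *Srebf2* gave 0.11 each, with intervals from -0.29 to 0.51 and from -0.16 to 0.39. *Idi1* was the only gene below 0, at -0.14 (95% interval -0.67 to 0.39). Each of these intervals included 0. Over the alternative fits listed below, *Idi1* lay between -0.53 and -0.10, *Hmgcs1* between 0.14 and 0.38, and *Fdft1* between 0.18 and 0.49.

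DHT-treated orchiectomized mice were also compared with sham-operated controls. *Idi1* was lower, at 56.3% of the control level, and no other gene of the 8 passed the test. The call of 1 of 8 genes as lower compares with 2.01% of all tested genes, and that of none as higher with 1.52%. *Idi1* was at 16.4, 16.2, 15.6, 23.9 and 10.4 CPM under DHT, which placed 4 of 5 DHT-treated aortas below every control, and DHT replicate 4 at the level of the lowest control. The log2 fold change was -0.83 (SE 0.25, 95% interval -1.36 to -0.29), with an adjusted P value of 0.229 in edgeR. The call was lost without control replicate 2 or 3 or DHT replicate 1, 2, 3 or 5 (log2 fold change -0.83 to -0.70), and with the replicate block (-0.86). *Hmgcs1* (-0.43, 95% interval -0.82 to -0.05) and *Cyp51* (-0.39, -0.73 to -0.05) came next without passing the threshold. *Lss* gave -0.20 (95% interval -0.66 to 0.25), *Srebf2* gave -0.01 (-0.28 to 0.27), and *Fdft1* was the only gene above 0, at 0.20 (-0.26 to 0.66). The median of the 8 genes was -0.31, with 7 of 8 below 0, as were 50.5% of all tested genes. At an adjusted P value below 0.05 edgeR called 4.72% of all genes between DHT-treated and untreated orchiectomized mice and 0.262% between DHT-treated and control mice, and none of the 8 genes was among them. These 666 and 37 genes became 181 and 3 without DHT replicate 5 and 194 and 4 without DHT replicate 3, and ranged from 181 to 895 and from 3 to 102 when single libraries were left out. With the T and B cell covariate they became 0 and 32. The 3 comparisons share their libraries and are therefore given side by side and not as separate lines of evidence.

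Levels can be set against each other only per length of transcript. Per kilobase of annotated exon (GENCODE M21 basic), *Fdps* and *Hmgcs1* were the most abundant in control aortas, at 82.6 ± 27.3 and 79.9 ± 14.4 CPM per kilobase (SD, n = 5). *Srebf2* followed at 35.9 ± 5.17, then *Sqle* at 24.7 ± 5.05, *Cyp51* at 24.5 ± 4.54 and *Fdft1* at 20.5 ± 5.38. *Lss* (10.8 ± 2.87) and *Idi1* (9.70 ± 2.05) were the least abundant. Neighbours in this order overlapped in range, except that all *Hmgcs1* values were above all *Srebf2* values and all *Srebf2* values above all *Sqle* values. The order rests on the exons assumed for each gene.

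A list of 15 other enzymes of cholesterol synthesis, all of which were tested, covered steps before, between and after those of the 8 genes. Of these, 2 were lower in orchiectomized than in control mice, and 13 of 15 log2 fold changes were below 0 (median -0.39). *Sc5d*, a late desaturase, fell from 74.7 ± 17.7 to 42.4 ± 7.45 CPM (SD, n = 5), with a log2 fold change of -0.82 (SE 0.17), and its groups did not overlap. *Nsdhl*, which acts after *Cyp51* in removing methyl groups from the sterol, gave -0.97 (SE 0.28), and its call was lost without control replicate 3 (-0.72) or orchiectomized replicate 3 (-0.86), and also with the replicate number as a block, with the adipocyte or the T and B cell level as a covariate, with voom, and without orchiectomized replicates 2 and 3 together (-0.97 to -0.49). Under DHT, 1 enzyme was higher and 1 lower than in untreated orchiectomized mice. *Mvd*, which makes isopentenyl diphosphate, gave 0.71 (SE 0.24), a call lost without control replicate 1 or 2, orchiectomized replicate 3 or 4 or DHT replicate 3, 4 or 5 (log2 fold change 0.61 to 0.71), and under the same 5 alternatives as *Nsdhl* (0.51 to 0.68). *Lbr*, a sterol reductase that also anchors chromatin at the nuclear envelope, gave -0.46 (SE 0.12, adjusted P value of 0.0401 in edgeR), and every DHT-treated aorta was below every untreated orchiectomized aorta. The call of *Lbr* was lost with the T and B cell level as a covariate (-0.28) and without orchiectomized replicates 2 and 3 together (-0.35). None of the 15 was called between DHT-treated and control mice.

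**Figure D2:**
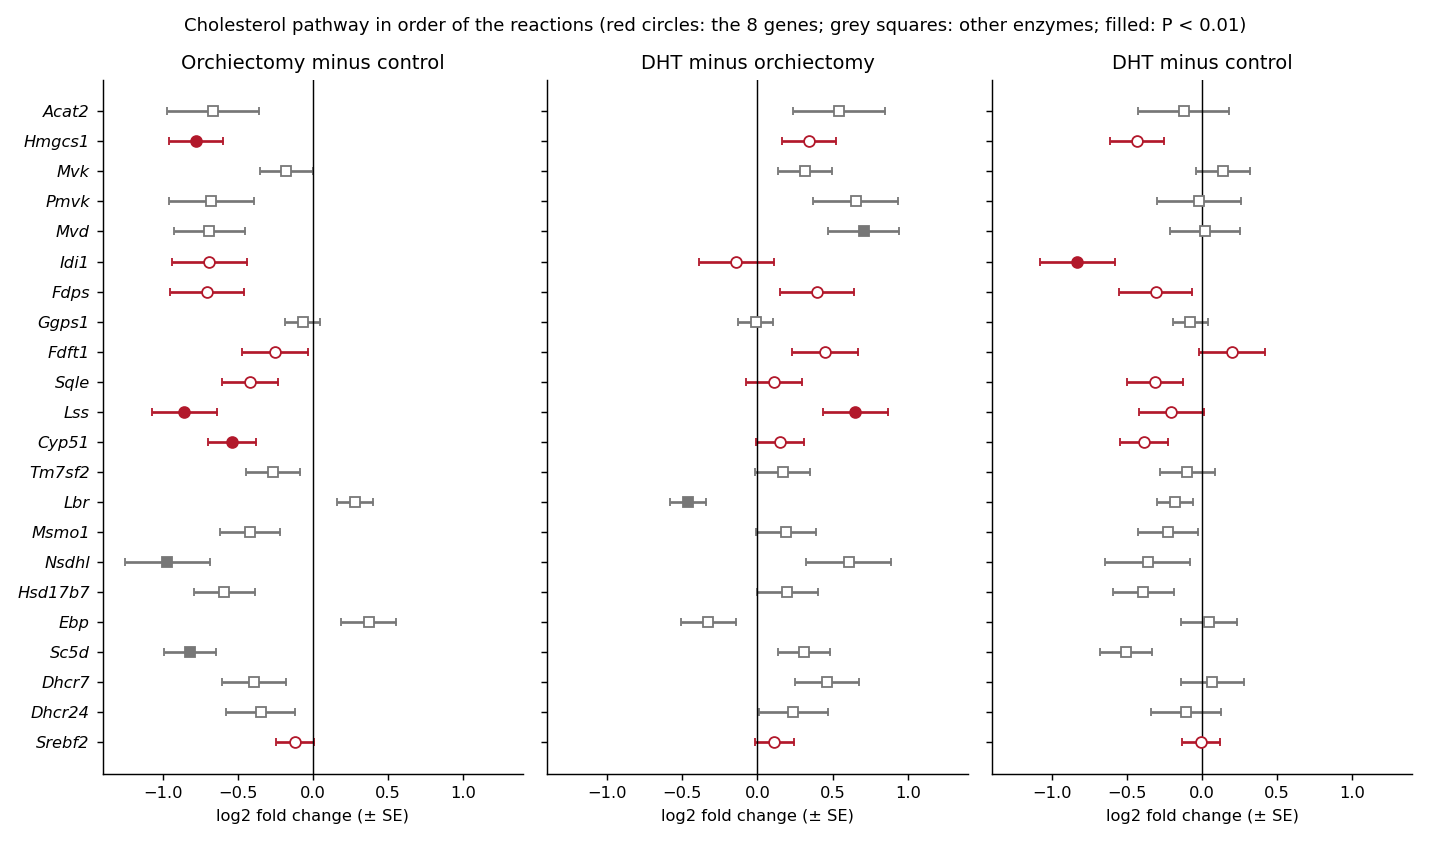
Log2 fold change ± SE (horizontal axis) of cholesterol synthesis enzymes in order of their reactions, with *Srebf2*, which is a regulator, at the bottom, in the 3 comparisons; red circles are the 8 genes, grey squares other enzymes, and filled symbols have P values below 0.01. After orchiectomy all values but those of *Lbr* and *Ebp* lie left of 0.

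The machinery that governs SREBP activity was examined through 9 genes. After orchiectomy 2 of 9 were lower: *Insig1*, which retains SREBPs in the endoplasmic reticulum and is itself a target of SREBPs, at -0.82 (95% interval -1.34 to -0.31), and *Srebf1*, the SREBP of fatty acid synthesis, at -0.49 (-0.84 to -0.14). The call of *Insig1* was lost without control replicate 1 or 3 or orchiectomized replicate 3 (log2 fold change -0.77 to -0.72), and that of *Srebf1* was lost when any 1 of 11 libraries was left out: control replicates 1, 2, 3 and 5, orchiectomized replicates 1, 2, 3 and 5, and DHT replicates 2, 3 and 5 (log2 fold change -0.54 to -0.41). *Insig1* was also not called with the adipocyte covariate (-0.42), the T and B cell covariate (-0.87) or without orchiectomized replicates 2 and 3 together (-0.64). *Srebf1* was not called in these 3 fits, with the stricter count filter, with the replicate block or with voom (-0.50 to -0.23). The escort protein gene *Scap*, named after its values were seen, gave -0.09 (95% interval -0.25 to 0.07). None of the 9 was called between DHT-treated and untreated orchiectomized mice, and 1, *Erlin2*, was lower under DHT than in controls (-0.27, 95% interval -0.45 to -0.10). That call was lost without control replicate 3 or 5 or DHT replicate 2, 3 or 5 (log2 fold change -0.27 to -0.24) and with the replicate block (-0.28).

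Cholesterol uptake and release from lysosomes were covered by 14 genes, of which 13 were tested. The other 1 was too low to test. None of the 13 was called in any of the 3 comparisons. After orchiectomy the smallest P values were those of *Lipa*, the lysosomal acid lipase (-0.59, 95% interval -1.06 to -0.12), and *Mylip*, a ubiquitin ligase that lowers lipoprotein uptake (0.26, 0.02 to 0.51). Medians of the 13 genes were -0.077, 0.019 and -0.12 for orchiectomized against control, DHT against orchiectomized and DHT against control mice. Below 0 were 10 of 13, 6 of 13 and 9 of 13 genes.

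Efflux, storage and oxysterol genes, 10 tested of 11, had no call after orchiectomy and 4 calls under DHT. *Nr1h2*, the sterol sensor LXR-beta, was higher (0.36, adjusted P value of 0.0422 in edgeR), and *Apoe*, which carries cholesterol out of cells, was lower (-0.80, adjusted P value of 0.0250). For both the DHT-treated and untreated orchiectomized groups did not overlap. With the T and B cell level as a covariate *Nr1h2* (0.23) and *Apoe* (-0.60) were not called, and without orchiectomized replicates 2 and 3 together *Nr1h2* (0.32) was not. *Ch25h*, which makes an oxysterol, and *Soat1*, which esterifies cholesterol for storage, were also lower (-1.69 and -0.57). Macrophages are rich in several of these transcripts, and 4 of 7 macrophage markers were lower under DHT as well, with a summed level of 394.5 to 1212 CPM in untreated orchiectomized and 218.9 to 423.7 CPM in DHT-treated mice. The part of macrophages in these 3 lower values was not tested. The call of *Ch25h* was lost without orchiectomized replicate 2 (log2 fold change -1.16) or DHT replicate 1, 2 or 4, and that of *Soat1* without control replicate 1 or 2, orchiectomized replicate 1, 2, 3 or 4, or DHT replicate 3, 4 or 5. The call of *Ch25h* was also lost with the replicate block (-1.62) and the T and B cell covariate (-1.19), and that of *Soat1* under 6 alternatives (-0.58 to -0.32): RLE size factors, the laxer count filter, the block, the T and B cell covariate, voom, and leaving out orchiectomized replicates 2 and 3 together. None of the 10 was called between DHT-treated and control mice.

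**Figure D3:**
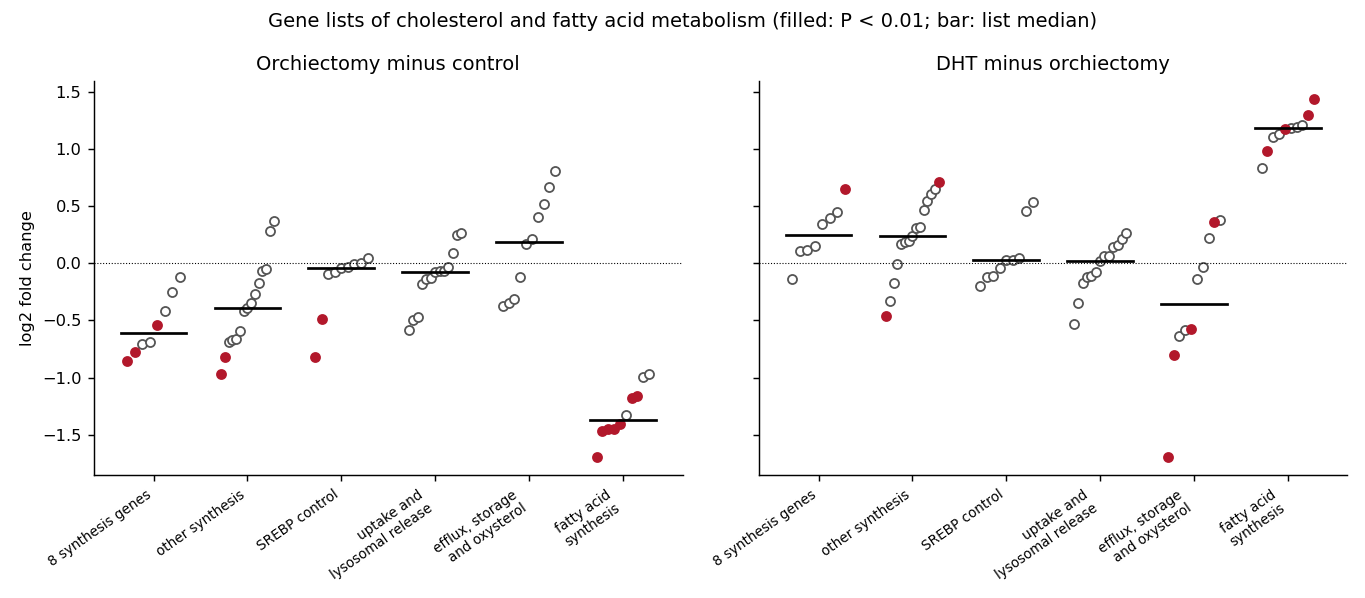
Log2 fold changes (vertical axis) of the 8 genes and of 5 related gene lists, for orchiectomy minus control (left) and DHT minus orchiectomy (right); each point is 1 tested gene, filled where P is below 0.01, and bars are list medians. After orchiectomy the 8 genes and the other synthesis enzymes lie mostly below 0 and fatty acid synthesis lies lowest, with a median of -1.37, while the uptake list has a median of -0.077, with 10 of 13 genes below 0.

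Fatty acid synthesis, the sister pathway driven by SREBP-1, was covered by a list of 10 genes. After orchiectomy 7 of 10 genes of that list were lower (median -1.37), and under DHT 4 of 10 were higher than in untreated orchiectomized mice (median 1.18). *Mlxipl*, which encodes the factor ChREBP, gave -1.69 (SE 0.42) after orchiectomy, and *Scd1*, a desaturase, gave -1.45 (SE 0.33). With the adipocyte level as a covariate both were still called, at -0.95 and -0.91. With the T and B cell level as a covariate neither was called (-1.87 and -1.53), and without orchiectomized replicates 2 and 3 together *Mlxipl* (-1.42) was not. Of the 7, 3 fell outside the rule for named genes and are not given under the alternatives. The call of *Acaca*, the carboxylase of acetyl-CoA, was lost without control replicate 3 (-1.19) and with the adipocyte covariate (-0.74), and that of *Acly* without control replicate 3 or orchiectomized replicate 2 or 3 (-1.32 to -1.11) and with that covariate (-0.74). Both calls were also lost with the T and B cell covariate (-1.52 for *Acaca* and -1.36 for *Acly*) and without orchiectomized replicates 2 and 3 together (-1.17 and -1.09). Each of the 4 calls under DHT was lost without certain single libraries, with the T and B cell covariate and without orchiectomized replicates 2 and 3 together. The main values of *Mlxipl*, *Slc25a1*, *Scd1* and *Thrsp* were 1.44, 1.29, 0.98 and 1.18. In the same order they were 1.62, 1.06, 1.07 and 0.80 with that covariate, and 1.17, 1.05, 0.80 and 0.83 without those 2 libraries. With the replicate block the calls of *Slc25a1* (1.22), *Scd1* (0.97) and *Thrsp* (1.14) were lost, and with voom those of *Mlxipl* (0.87), *Scd1* (0.71) and *Thrsp* (0.82). The call of *Mlxipl* was lost without orchiectomized replicate 2 or 3 or DHT replicate 4 (1.03 to 1.35), and that of *Slc25a1*, the mitochondrial citrate carrier, without orchiectomized replicate 3 or DHT replicate 3 or 4 (log2 fold change of at least 1.15). *Scd1* lost its call without control replicate 1, 2 or 5, orchiectomized replicate 1, 2, 3 or 5, or DHT replicate 1, 3 or 4 (0.74 to 1.04), and *Thrsp*, a lipogenic gene responsive to thyroid hormone, without control replicate 1, 2 or 5, orchiectomized replicate 1, 2 or 3, or DHT replicate 3, 4 or 5 (1.29 or less). Subtracting the mean log2 CPM of the fatty acid list from that of the 8 genes gave -3.24 ± 0.69 in controls, -2.58 ± 0.26 in orchiectomized mice and -3.42 ± 0.46 under DHT (SD, n = 5), a description without a test. The 12 adipocyte markers had a median of -0.54 after orchiectomy, with 10 below 0 and 1 called lower, and of 0.46 under DHT, with 9 above 0 and 1 called higher. Brown fat markers, 8 tested of 9, had a median of -0.55 after orchiectomy, with 1 called lower (*Elovl3*). For DHT against orchiectomized mice their median was 0.50, with 6 of 8 above 0, and the only marker called was lower (*Dio2*), as it was against controls. The 8 skeletal muscle markers had a median of -2.10 after orchiectomy, with 2 called lower, and of 3.07 under DHT, with 4 called higher. Their summed level was 41.3 to 500.5 CPM in control, 10.8 to 185.4 CPM in orchiectomized and 79.8 to 462.6 CPM in DHT-treated mice. All 8 tested T and B cell genes were called lower under DHT than in untreated orchiectomized mice (median -3.06), with a summed level of 9.58 to 156 CPM in untreated and 3.42 to 13.5 CPM in DHT-treated mice. In the same comparison all 9 smooth muscle markers had log2 fold changes above 0 (median 0.44, 1 called higher), all 7 fibroblast markers below 0 (median -0.46, 2 called lower), and 3 of 7 endothelial markers were called lower (median -0.44). The part of skeletal muscle, smooth muscle, fibroblasts and endothelium in the values of the 8 genes was not tested. Relative to the adipocyte list, the mean level of the 8 genes was -1.69 ± 0.49 in controls, -1.79 ± 0.26 in orchiectomized mice and -1.78 ± 0.27 under DHT (SD, n = 5). With the adipocyte level as a covariate in edgeR, *Hmgcs1* (-0.50) and *Lss* (-0.69) were still called lower after orchiectomy, *Cyp51* (-0.49) was not, and *Fdft1* gave 0.06. In that fit 0.397% of all tested genes were called lower after orchiectomy. Under the same covariate *Lss* gave 0.57 for DHT against orchiectomized mice and was not called.

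**Figure D4:**
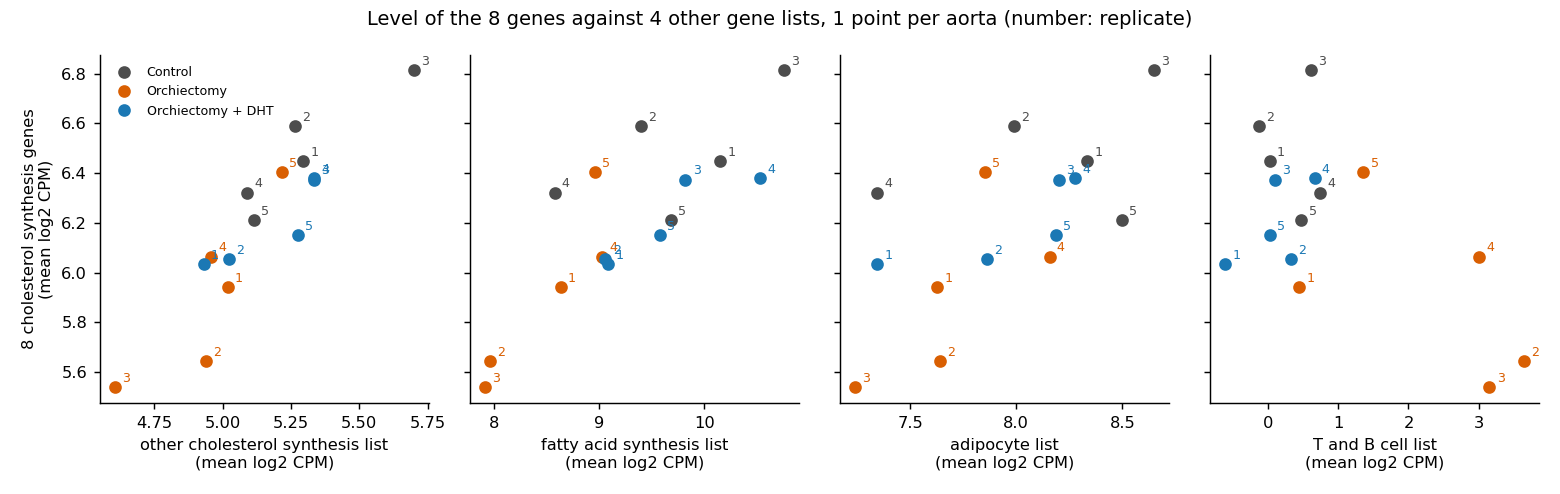
Mean log2 CPM of the 8 genes (vertical axis) against the mean log2 CPM of 4 other gene lists (horizontal axes) in the 15 aortas, coloured by group and numbered by replicate. The level of the 8 genes runs along with other cholesterol synthesis (r = 0.904), fatty acid synthesis (r = 0.817) and adipocyte markers (r = 0.658) and against T and B cell genes (r = -0.606). With the group means removed, r was 0.865, 0.739, 0.541 and -0.356 in the same order. The 3 libraries with the highest T and B cell levels are orchiectomized replicates 2, 3 and 4.

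The 8 genes varied together from aorta to aorta. Over the 15 libraries, the log2 CPM of every pair of the 8 genes was positively correlated, with Pearson's r between 0.143 and 0.877 and a median of 0.674 over 28 pairs. After the group means were removed, r lay between 0.003 and 0.834, with a median of 0.508 and no negative pair. *Sqle* and *Cyp51* were the closest pair (0.877), and the loosest was *Fdft1* and *Srebf2* (0.143). These points share the libraries and their depth, so the correlations are descriptions.

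Of 14113 other tested genes, the 6 whose log2 CPM followed the mean of the 8 genes most closely were *Hsd17b7* (r = 0.894), *Sc5d* (0.880), *Nsdhl* (0.875), *Riok3* (0.873), *Acly* (0.861) and *Tm7sf2* (0.859), over 15 libraries. Of these, *Hsd17b7*, *Sc5d*, *Nsdhl* and *Tm7sf2* are enzymes of cholesterol synthesis, and *Acly* makes the acetyl-CoA from which sterols and fatty acids are built. With the group means removed, r was 0.816 for *Hsd17b7* and 0.891 for *Tm7sf2*. *Lbr* ranked 13239 (r = -0.523).

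**Figure D5:**
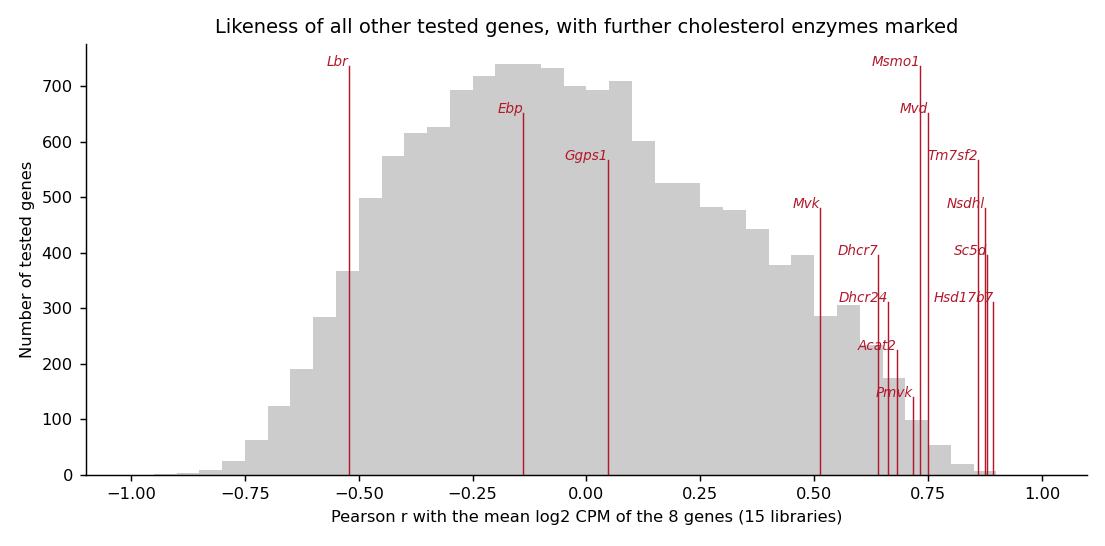
Histogram of Pearson's r between each of 14113 other tested genes and the mean log2 CPM of the 8 genes over 15 libraries (horizontal axis: r; vertical axis: number of genes), with red lines at further enzymes of cholesterol synthesis. *Hsd17b7*, *Sc5d*, *Nsdhl* and *Tm7sf2* sit at the right-hand edge, at r of 0.859 to 0.894, while *Ggps1*, *Ebp* and *Lbr* lie between -0.523 and 0.047.

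Clock genes also differed between the groups, and many lipid genes are known to follow the time of day. Of 14 clock genes, 6 were higher and 2 lower in orchiectomized than in control mice, and 5 were higher and 1 lower in DHT-treated than in control mice, with 1 lower between DHT-treated and untreated orchiectomized mice. *Dbp*, a clock output factor, was at 4.59 to 15.5 CPM in controls, 28.1 to 56.2 CPM in orchiectomized and 25.1 to 44.6 CPM in DHT-treated mice. The mean level of the 8 genes had r = -0.506 with that of the clock list over the 15 libraries and r = 0.059 with the group means removed. The hour at which aortas were collected is not given in the sources used here, and its part in the lower values was not tested.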

How the data were processed

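RNA-Seq counts of 15 whole aortas, 5 per group, were used, with groups and replicate numbers as in the labels. The authors deposited unnormalized counts, whole numbers of reads for each gene symbol. The RNA was enriched for poly(A). The submitters' processing notes name STAR, Cufflinks, DESeq2 and mm10 without roles or versions, and the counting program, annotation and use of strand are not given in the sources used here. If reads with several matches were dropped, genes with near-identical copies would be undercounted. Reads assigned to no gene (6.26% to 14.4% of a library) or to several genes (1.34% to 1.97%) were left out.

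In edgeR 4.0.16 (R 4.3.3), filterByExpr, with a minimum count of 10 and a total of 15, selected 14121 genes. TMM scaling and a quasi-likelihood fit of the 3 groups to all 15 libraries followed. The SE is the log2 fold change divided by the square root of F. A gene was called at an unadjusted P value below 0.01, the threshold of the study, and P values were adjusted by Benjamini-Hochberg over all tested genes. The labels do not say more of the mice's origin, so P values measure the spread between these 15 aortas. The procedure was also run on simulated counts, drawn independently for each gene and library. These held no shifts in cell composition, so that run does not bear on the libraries that stood apart. Log2 CPM used a prior count of 3. A count of 10 in a library of median size is 0.915 CPM, and the biological coefficient of variation was 0.297.

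The 8 genes and all gene lists were chosen with earlier results of these data known. Named genes were the 8, up to 4 called genes of smallest P value per metabolic list and comparison (the 2 of smallest P value where none was called), up to 3 per cell type or clock list, and the 6 most like the mean of the 8. A gene outside this rule is marked in the text. Some genes of the lists are counted in them but not reported here by name.

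Alternatives were DESeq2 1.42.0, size factors by RLE, a laxer filter (any gene with 1 count), a stricter one (10 counts in each library), a fit to only the groups compared, a replicate block, voom of limma 3.58.1 with quality weights, an adjusted threshold of 0.05, an adipocyte covariate and leaving out each library. A T and B cell covariate and the removal of both libraries with a quality weight under 0.6 were added after the data were seen. Figures were drawn with Python 3.11.15.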

Additional observations from a re-analysis of the deposited data

Results flagged for a closer look

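Each of the 8 genes was examined in each of the 3 groups, 24 groups of 5 aortas, for an aorta far from the rest of its group (Dixon's test), and 2 were found. Chance alone flags about 1 in 20 such groups. *Lss* in control replicate 3 stood at 73.9 CPM, with the next control at 48.1 CPM and the lowest at 41.8 CPM. Without that library the log2 fold change of *Lss* after orchiectomy was -0.71 in place of -0.85, and it was called in both. *Cyp51* in DHT replicate 3 stood at 98.6 CPM, with the next at 68.8 CPM and the lowest at 65.6 CPM. Without that library *Cyp51* was called lower in DHT-treated than in control mice (log2 fold change -0.52), where all 15 libraries gave -0.39 and no call.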

How the results depend on the processing

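The number of the 8 genes called lower after orchiectomy, 3, became 5 with DESeq2, 1 with voom, 1 without the libraries of low quality weight, 0 with the T and B cell covariate and 0 at an adjusted P value below 0.05, and leaving out single libraries gave 2 to 6. Of all genes tested, 2.24%, 1.61%, 0.482%, 0.8% and 0% were called lower in those fits, and 0.547% to 3.13% without single libraries. The 1 gene higher under DHT than in untreated orchiectomized mice became 0 when only the groups compared were fitted, with the replicate block, with either covariate, with voom, without the libraries of low quality weight and at the adjusted threshold, and leaving out single libraries gave 0 to 1. In those 7 fits 0.736% to 3.5% of all genes were called higher. The 1 gene lower under DHT than in controls became 0 with the replicate block and at the adjusted threshold and 2 with voom, where 1.66%, 0.149% and 3.48% of all genes were called lower, and leaving out single libraries gave 0 to 2. Apart from the adjusted threshold, which calls fewer genes by construction, the cause was not tested.

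Some values changed sign, none of them called. After orchiectomy, *Fdft1* gave 0.059 with the adipocyte covariate, and *Srebf2* gave 0.027 with the T and B cell covariate and 0.10 with voom. For DHT against orchiectomized mice, the T and B cell covariate gave -0.17 for *Sqle*, -0.075 for *Cyp51* and -0.052 for *Srebf2*, voom gave -0.17, -0.0083 and -0.055, and leaving out the libraries of low quality weight gave -0.094 for *Sqle* and -0.0016 for *Cyp51*. *Idi1* lay between -0.29 and 0.062 when single libraries were left out. For DHT against control mice, *Srebf2* gave 0.00021 with RLE size factors, 0.0040 with the stricter filter, 0.047 with voom, and -0.059 to 0.053 when single libraries were left out.

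Over all genes, the 294 higher and 160 lower after orchiectomy became 304 and 316 with DESeq2, 498 and 254 with the laxer filter, 168 and 146 with the stricter one, 140 and 157 with only the groups compared, 180 and 105 with the block, 191 and 56 with the adipocyte covariate, 156 and 113 with the T and B cell covariate, and 80 and 69 without the low-weight libraries. Leaving out single libraries gave 120 to 396 higher (lowest without orchiectomized replicate 2) and 78 to 446 lower, with more lower than higher without control replicate 4 (446 against 270), orchiectomized replicate 2 (134 against 120) or DHT replicate 4 (261 against 257). The 347 higher and 1026 lower under DHT than after orchiectomy alone became 645 and 1063 with DESeq2, 218 and 856 with the block, 104 and 185 with the T and B cell covariate and 272 and 510 without the low-weight libraries. The 214 higher and 284 lower under DHT than in controls became 326 and 362 with DESeq2, 341 and 323 with only the groups compared, 501 and 491 with voom and 339 and 364 without the low-weight libraries.

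Groups share replicate numbers, but a pairing of the mice by number was not seen. Deviations from the group means correlated above 0.1 for 5 of 15 same-numbered pairs (range -0.466 to 0.463), and 3 of 15 libraries matched their own number best. These values cannot exclude a pairing, since differences in cell composition also enter them. With the replicate block, 2 of the 8 genes were called lower after orchiectomy, against 0.744% of all genes. None of the 8 was called higher under DHT than after orchiectomy alone (1.54% of all genes) or lower under DHT than in controls (1.66%).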
